A study of Mus musculus with 3 samples.

Results

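The subject is 10 genes whose RNA marks out fields of the mouse hippocampus, among 47593 gene rows measured. They were taken by name: Prox1, Calb1 and Lef1 for the dentate gyrus, Wfs1, Fibcd1, Man1a and Pou3f1 for CA1, Pcp4 and Amigo2 for CA2, and Zbtb20 as a gene of several fields. All 10 rows were found. RNA was sequenced in 3 libraries, replicates 1 to 3 of a single group: wild-type (WT) primary neurons from mouse hippocampus, kept in Neurobasal with 10% B27 and 1% GlutaMAX and given fresh medium with B27 and penicillin-streptomycin for 24 h. An apoE-particle arm is mentioned in the design of the study and is not analysed here, which leaves no treatment comparison. The labels state no age, sex, days in culture or number of animals, and do not say whether the replicates were separate cultures, so p-values measure only the spread between these samples, which may be technical.

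The hippocampus is a chain of fields, from the granule cells of the dentate gyrus through the pyramidal cells of CA3 and CA2 to those of CA1. Each field has its own set of transcription factors, adhesion proteins and calcium-handling proteins, which are widely used to name its cells. In a dissociated culture the anatomy is lost, and only such RNA is left to show which fields contributed. Several of the genes are not exclusive to 1 field or to 1 cell class. Prox1 and Calb1 are also made by some inhibitory interneurons in mouse, and Zbtb20 also by astrocytes. In bulk RNA, fewer cells of a type and less RNA per cell cannot be told apart.

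Promoter windows of 5 members with high, middle and low levels are shown first, since they differ widely in base composition. Each line gives the 250 bases before a RefSeq transcription start on build GRCm38.p6, 5′ to 3′ on the gene's own strand, with every CG dinucleotide (CpG) in capitals. The windows lie at chr16:43247034-43247283 (plus strand, Zbtb20), chr2:31846006-31846255 (minus strand, Fibcd1), chr15:97247288-97247537 (minus strand, Amigo2), chr16:96467356-96467605 (plus strand, Pcp4) and chr3:131110073-131110322 (plus strand, Lef1).
Zbtb20: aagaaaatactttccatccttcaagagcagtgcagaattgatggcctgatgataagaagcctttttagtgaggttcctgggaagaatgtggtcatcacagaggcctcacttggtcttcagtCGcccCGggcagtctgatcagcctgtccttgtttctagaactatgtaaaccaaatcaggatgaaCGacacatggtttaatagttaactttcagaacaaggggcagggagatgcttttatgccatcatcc
Fibcd1: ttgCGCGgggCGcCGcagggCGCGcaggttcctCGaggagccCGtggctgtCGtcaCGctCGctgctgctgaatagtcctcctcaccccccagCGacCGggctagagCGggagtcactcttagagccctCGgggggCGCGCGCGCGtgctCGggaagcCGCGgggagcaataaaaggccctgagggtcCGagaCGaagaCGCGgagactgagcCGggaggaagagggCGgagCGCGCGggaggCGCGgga
Amigo2: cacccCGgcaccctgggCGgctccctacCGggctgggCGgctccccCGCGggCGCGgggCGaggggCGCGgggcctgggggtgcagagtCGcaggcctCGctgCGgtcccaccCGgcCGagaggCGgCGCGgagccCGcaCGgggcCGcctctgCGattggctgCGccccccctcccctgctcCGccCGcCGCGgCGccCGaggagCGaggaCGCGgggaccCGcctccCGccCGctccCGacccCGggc
Pcp4: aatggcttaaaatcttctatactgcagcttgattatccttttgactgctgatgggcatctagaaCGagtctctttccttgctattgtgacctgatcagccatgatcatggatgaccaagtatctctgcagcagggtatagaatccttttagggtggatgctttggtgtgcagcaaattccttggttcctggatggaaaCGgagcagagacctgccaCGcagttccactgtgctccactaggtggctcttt
Lef1: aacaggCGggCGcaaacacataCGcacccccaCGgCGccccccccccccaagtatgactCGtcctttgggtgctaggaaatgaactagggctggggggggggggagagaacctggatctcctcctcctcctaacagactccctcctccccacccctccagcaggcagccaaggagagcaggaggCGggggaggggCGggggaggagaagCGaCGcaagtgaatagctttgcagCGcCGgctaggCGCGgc

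Zbtb20, the most abundant member, and Pcp4, the least abundant one above the detection limit, each had 3 CpGs in this window, and 29.0% of 32851 windows of the same length had fewer. The window shown for Lef1, which was almost without reads, had 14, against a median of 6 over all windows; its other 3 windows had 11, 6 and 5. Amigo2 had 38 and Fibcd1 34, counts exceeded by few genes, with 98.1% and 96.5% of windows holding fewer. GC content of the windows ran from 44.8% in Zbtb20 and 46.8% in Pcp4 to 84% in Amigo2. RefSeq windows were matched for 8 of the 10 genes, 12 windows in all, since Prox1 had 2 and Lef1 had 4. The letters TATAAA, on either strand, were in 2 of these 12 windows, 1 of Prox1 and 1 of Lef1, and in 12.4% of all windows. Neither CTTTGAT, the core bound by LEF and TCF factors, nor ATTTGCAT, the octamer bound by POU factors, occurred in them on either strand; all windows held them at 3.21% and 1.60%. A match of letters describes a window and does not show a site in use.

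Of the 10 genes, 9 were detected, meaning at least 1 CPM (count per 1000000) in each library by the deposited values. The same 9 passed on recovered reads, that is, the whole reads worked back from the deposited log2 values. Among all gene rows 29.4% were detected by the deposited values and 28.7% by recovered reads, and among rows that matched a protein-coding gene 59.2% were. The median of the 10 genes was 24.6 CPM, against 27.8 CPM for all detected rows and 1.95 CPM for all rows with a read. Together the 10 genes summed to 336 ± 4.19 CPM (SD, n = 3). Libraries held 18780574, 18683964 and 18885652 recovered reads, so 3 reads in a library corresponded to about 0.16 CPM. Levels given as CPM, reads or CPM per kilobase come from recovered reads, and values called log2 are the deposited ones. Intervals and floors cover counting error only.

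**Figure D1:**
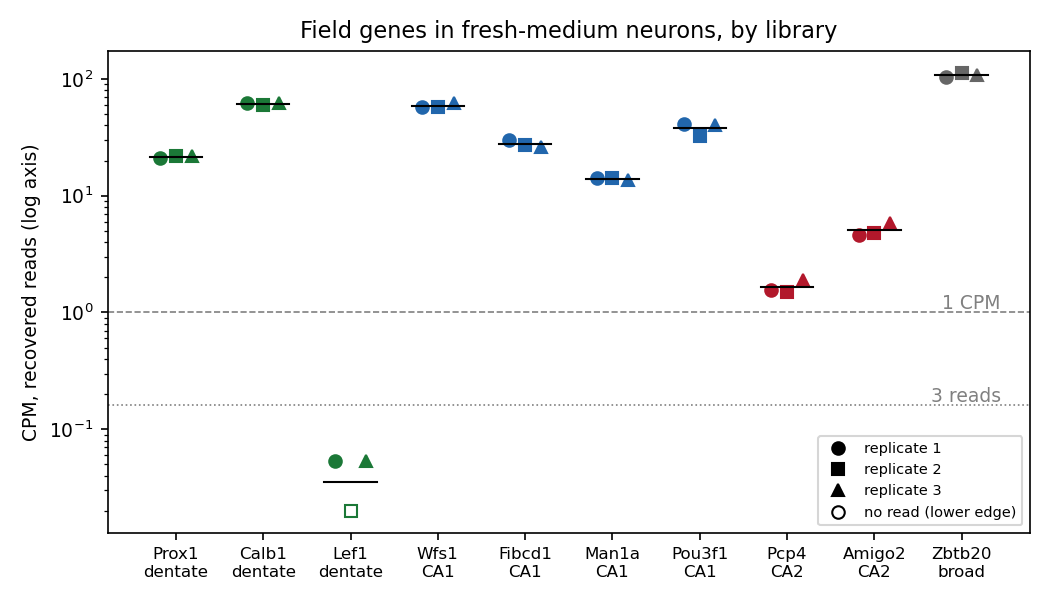
Level of each field gene in each library, in CPM on a log axis. Points are libraries, bars are means of 3, colours mark the field, and lines mark 1 CPM and 3 reads; Zbtb20 lies at the top at 108 CPM and Lef1 is the single gene under both lines.

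Among dentate genes, Calb1 and Prox1 were expressed and Lef1 was not detected. Calb1, which encodes the calcium buffer calbindin of mature granule cells, had 1169, 1112 and 1165 reads in replicates 1, 2 and 3. Its level was 61.1 ± 1.44 CPM and its deposited log2 values were 10.17, 10.15 and 10.17. Calb1 lies on chromosome 4 from 15881264 to 15908064 on the plus strand of GRCm38. The 3 libraries differed by at most 1.04-fold after scaling by size factors.

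Prox1, the homeobox factor that sets and keeps granule cell identity, had 391, 411 and 412 reads, or 21.5 ± 0.63 CPM. Its log2 values were 8.65, 8.67 and 8.66. Prox1 lies on chromosome 1 from 190118035 to 190170714 on the minus strand, and the antisense gene Prox1os shares 133 bases with its exons. Prox1os had 13, 23 and 9 reads. Reads of a gene and of its antisense partner can be told apart only where strand was kept, which the labels do not state.

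Lef1, a DNA-binding partner of beta-catenin in Wnt signalling, had 1, 0 and 1 reads. Pooled over the libraries these 2 reads give 0.0355 CPM, with an exact (Clopper-Pearson) 95% interval of 0.0043 to 0.128 CPM. In replicate 2, the library without a read, the upper bound of the exact 95% interval was 0.197 CPM, and the limit of 3 reads corresponds to 0.161 CPM. Lef1 lies on chromosome 3 from 131110471 to 131224356, and the antisense gene Gm43352, which covers 13.7% of its exon bases, had no reads. Among genes with any read, 12.9% lay below Lef1.

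All CA1 genes were detected, within a narrower range than the dentate ones. Wfs1, which encodes wolframin, a membrane protein of the endoplasmic reticulum, had 1084, 1065 and 1164 reads, or 58.8 ± 2.49 CPM. Pou3f1, a POU-domain transcription factor also called SCIP or Oct6, had 776, 611 and 758 reads, or 38.1 ± 4.67 CPM. Fibcd1, a membrane receptor with a fibrinogen-type domain, had 560, 507 and 490 reads, or 27.6 ± 1.98 CPM. These 3 genes lie on chromosome 5 (36966104 to 36989205, minus strand), chromosome 4 (124656807 to 124660655, plus strand) and chromosome 2 (31813290 to 31846005, minus strand). The antisense gene Gm2164, not analysed here, covers 8.57% of the exon bases of Pou3f1. Man1a, a Golgi mannosidase that trims N-linked sugar chains, was the lowest of the field at 267, 265 and 258 reads, or 14.0 ± 0.31 CPM, and lies on chromosome 10 from 53904785 to 54076609 on the minus strand. The antisense gene Gm16998 shares 147 bases with the exons of Man1a and had 2, 1 and 3 reads. Deposited log2 means were 10.11 for Wfs1, 9.48 for Pou3f1, 9.02 for Fibcd1 and 8.04 for Man1a.

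Both CA2 genes passed the detection limit but were low. Amigo2, a leucine-rich-repeat adhesion protein, had 87, 89 and 110 reads, or 5.07 ± 0.65 CPM. It lies on chromosome 15 from 97244125 to 97247287, and the gene Pced1b on the opposite strand shares 58 bases with its exons and had 58, 53 and 67 reads. Pcp4, a small protein that modulates calcium binding by calmodulin, had 29, 28 and 36 reads, or 1.65 ± 0.22 CPM. Its exact 95% interval was 0.996 to 2.17 CPM in replicate 2, the lowest library, so that detection there is not firm at this depth. Pcp4 lies on chromosome 16 from 96467606 to 96525793, and Igsf5, on the same strand, covers 23.7% of its exon bases. Igsf5 itself had 2, 0 and 0 reads. The labels do not state whether reads in shared exons were kept or dropped, so the value of Pcp4 is uncertain.

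Zbtb20, a zinc-finger repressor needed for hippocampal development in mouse, was the highest member, with 1945, 2112 and 2031 reads, or 108 ± 4.76 CPM. Among genes with a read, 91.1% lay below it. The gene spans chromosome 16 from 42875881 to 43642602, and 21 annotated transcripts give exons summing to 30730 bases, against 1026 bases for Pcp4 and 3787 for Wfs1. The RefSeq promoter window shown above lies inside this span. None of the overlapping annotated genes with a row had more reads than BC002163, a processed pseudogene with 26, 27 and 15 reads that shares no exon base with Zbtb20.

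**Figure D2:**
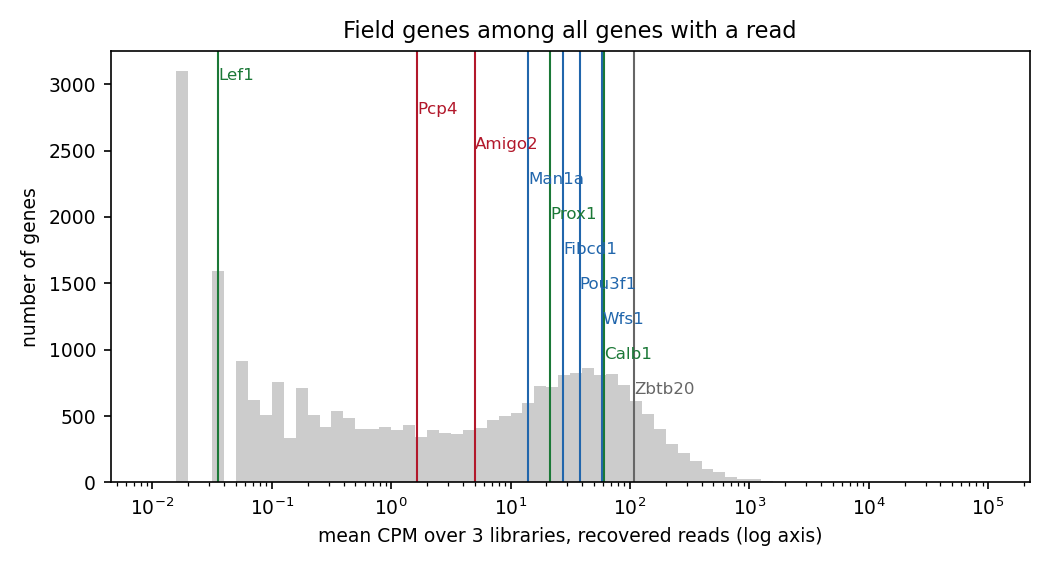
Number of genes by mean CPM over 3 libraries, recovered reads, on a log axis, for genes with at least 1 read. Vertical lines mark the 10 field genes; 8 lie at 5 CPM or above, where most detected genes lie, Pcp4 lies at 1.65 CPM and Lef1 at 0.0354 CPM.

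Longer genes collect more reads, so levels of different genes were set against each other per kilobase of exon within each library. On that scale Wfs1 was highest at 15.5 ± 0.66 CPM per kilobase, followed by Calb1 at 12.6 ± 0.30 and Pou3f1 at 9.89 ± 1.21. Fibcd1 reached 5.82 ± 0.42 and Zbtb20 3.52 ± 0.15. Prox1 (2.57 ± 0.08), Pcp4 (1.61 ± 0.22), Amigo2 (1.60 ± 0.21) and Man1a (1.45 ± 0.03) lay close together. Among detected protein-coding genes 74.0% lay below Wfs1 per kilobase, 33.4% below Zbtb20 and 17.5% below Man1a.

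All 45 pairs of members were compared as log2 differences of the deposited level per kilobase, with 0.5 CPM added to each level. In recovered reads, with the same 0.5 CPM added, each pair had the same sign in 3 of 3 libraries. The mean difference exceeded 2 SDs between libraries in 44 of 45. The exception was a neighbouring pair, Amigo2 over Man1a, at 0.23 ± 0.01 in deposited values and 0.22 ± 0.20 in recovered reads. Wfs1 lay above Calb1 by 0.30 ± 0.02 (0.05 in recovered reads) and Calb1 above Pou3f1 by 0.35 ± 0.03 (0.15 in recovered reads). Fibcd1 lay above Zbtb20 by 0.74 ± 0.04 and Prox1 above Pcp4 by 0.33 ± 0.01, with SDs of 0.15 and 0.14 in recovered reads. The two-sided exact sign-flip permutation p was 0.25 for each pair (0.25 after Benjamini-Hochberg adjustment over 45 pairs), the smallest that 3 libraries allow, so no pair could pass 0.05. Pcp4 and Amigo2 differed by 0.25 ± 0.01, but at these low levels the difference owes much to the added 0.5 CPM. Without it Pcp4, Amigo2 and Man1a lay at 1.61 ± 0.22, 1.60 ± 0.21 and 1.45 ± 0.03 CPM per kilobase. The SDs of Pcp4 and Amigo2 span the gaps among these 3 genes. Their constant signs therefore rest on the added 0.5 CPM, and their order within a library is not firm.

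**Figure D3:**
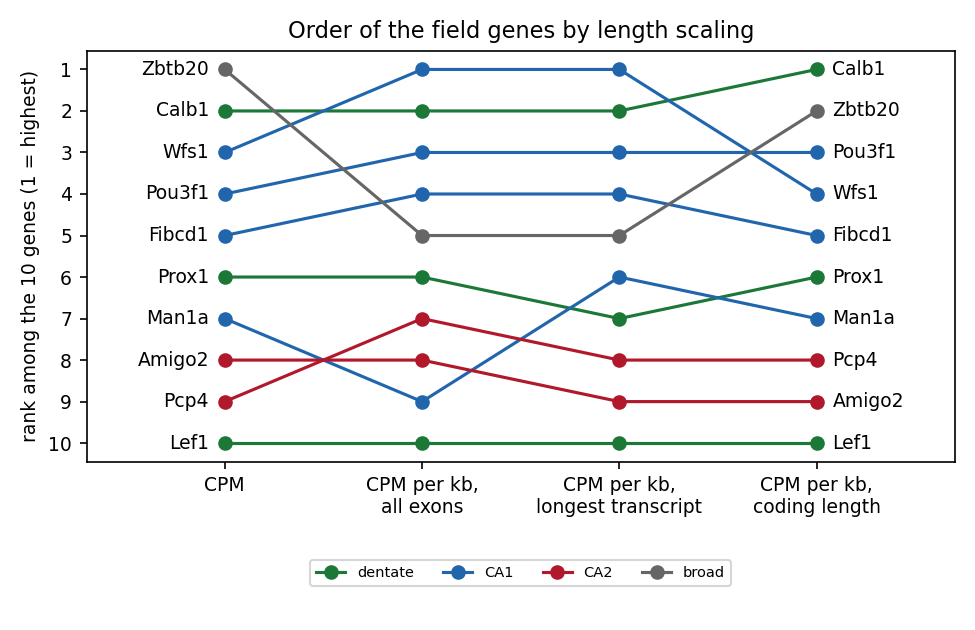
Rank of each field gene, 1 the highest of 10, from the mean CPM and from CPM per kilobase of all annotated exons, of the longest transcript and of the coding length. Lines join a gene across the 4 measures; Lef1 is last in all 4, whereas Zbtb20 has ranks 1, 5, 5 and 2.

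The length taken for a gene changed the order. In plain CPM, Zbtb20 led and Calb1 and Wfs1, at 61.1 ± 1.44 and 58.8 ± 2.49, differed by −0.06 log2 units (Wfs1 over Calb1), about the SD of 0.05 between libraries. Per kilobase of coding length Calb1 came first, at 78.1, before Zbtb20 at 48.6, Pou3f1 at 28.2 and Wfs1 at 22.0 CPM per kilobase. Of the 45 pairs, 8 changed direction without length scaling, 3 with the longest transcript and 7 with coding length. Man1a moved from rank 9 to rank 6 with the longest transcript, which has 5137 bases against 9647 bases of all its exons. Lef1 was last and both CA2 genes were among the lowest 4 genes in each of these measures.

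The fields were also set against each other, as the mean of their members' log2 levels per kilobase. CA1 genes lay above CA2 genes by 1.67 ± 0.01 (SD 0.16 in recovered reads), a 3.18-fold ratio, and kept that direction under the alternatives of length, pseudocount, summary and left-out library that were run. Its size did not hold: it ranged from 0.64 with a pseudocount of 5 to 3.17 without length scaling, with 3.10 for summed levels. Dentate genes lay below CA1 genes at −2.27 ± 0.01 (SD 0.04 in recovered reads) and below CA2 genes at −0.60 ± 0.002 (SD 0.13 in recovered reads). Both dentate ratios rest on Lef1, whose level is set by the added 0.5 CPM. With Calb1 and Prox1 alone the dentate mean lay 1.59 above CA2, and at −0.08 ± 0.01 against CA1, where the SD was 0.06 in recovered reads. This last difference turned to 0.25 without length scaling and to 0.72 with coding length, so no direction is given for it. The exact sign-flip permutation p was 0.25 for each of the 3 field pairs (adjusted 0.25). Summed levels were 82.7 ± 1.07 CPM for the dentate genes, 138 ± 6.52 for CA1 and 6.72 ± 0.87 for CA2, over 3, 4 and 2 genes. Calb1 alone made up 61.1 CPM of the dentate sum. Since several members, Calb1 among them, are not exclusive, these ratios compare lists of genes and do not measure the share of each field.

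Other genes of the same fields, from lists chosen by name, gave a wider view of each field. Of 10 other dentate genes 7 were detected, with a median of 11.1 CPM, from Stxbp6, a regulator of vesicle fusion, at 35.8 ± 1.36 CPM to Tdo2, a tryptophan-degrading enzyme, at 0.41 ± 0.16 CPM. Lef1 was thus not alone in missing the detection limit: Tdo2, C1ql2 and Dsp also missed it, with 23, 49 and 38 reads in all. C1ql2 reached 1.18 CPM in replicate 2. Lef1, with 2 reads in all, lay below these 3 genes. Of 5 other CA1 genes 4 were detected, led by Mpped1, a metallophosphoesterase, at 334 ± 11.5 CPM, above each of the 4 CA1 members; Spink8 had 1 read in each library. Of 8 other CA2 genes 7 were detected, with a median of 8.21 CPM, led by Necab2, a calcium-binding protein, at 43.4 ± 0.61 CPM, while the vasopressin receptor gene Avpr1b had no reads. Both CA2 members lay below that median. All 7 CA3 genes were detected, from Spock1, a proteoglycan, at 146 ± 9.54 CPM to Iyd at 4.2 ± 1.04 CPM, and so were all 3 genes of mossy cells, the excitatory cells of the dentate hilus, from Calb2 at 34.6 ± 1.41 to Calcrl at 10.8 ± 1.76 CPM. CA3 and the mossy cells had no member among the 10 genes. Whether the genes of these wider lists came from cells of the named field or type was not tested, so their detection does not show those cells.

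**Figure D4:**
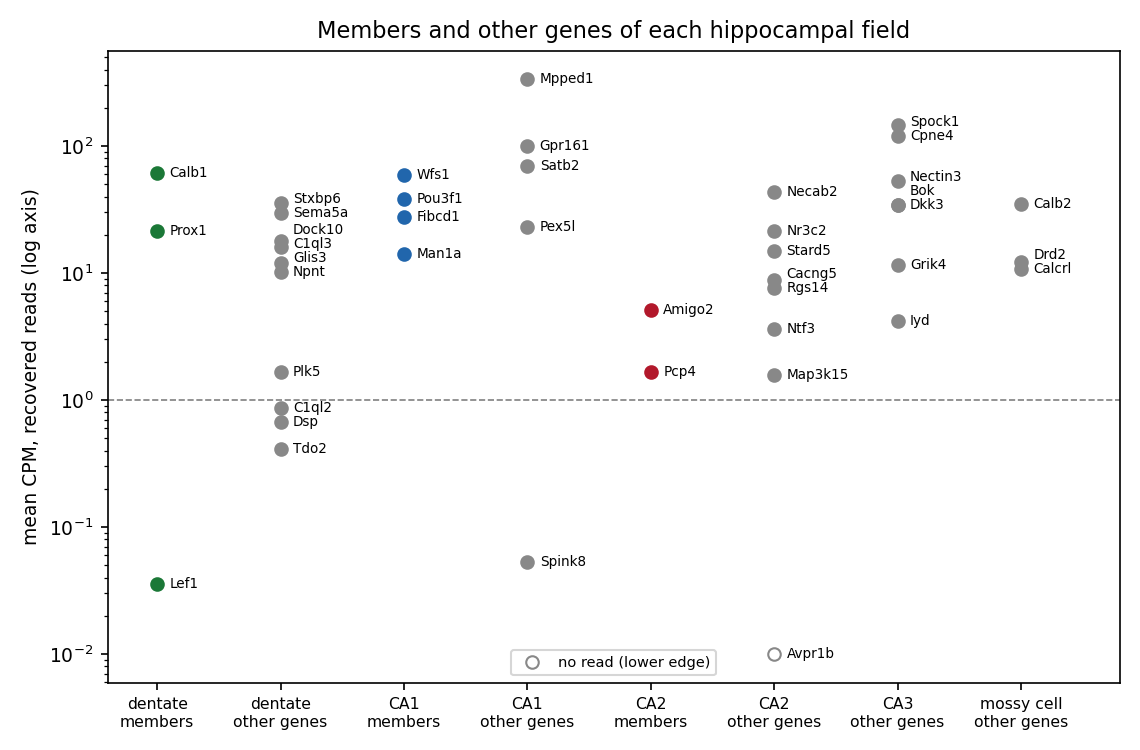
Mean CPM over 3 libraries, recovered reads, on a log axis, for members (coloured) and other genes (grey) of each field; each point is a gene and the dashed line marks 1 CPM. Detected genes occur in the list of every field, and the points below the line are Lef1, C1ql2, Dsp, Tdo2, Spink8 and Avpr1b.

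Transcription factors of the developing hippocampus were all detected, 11 of 11, with a median of 136 CPM. They ran from Zbtb18, a zinc-finger repressor related to Zbtb20, at 540 ± 4.42 CPM to Emx2 at 7.03 ± 0.76 CPM. The summed level of the list was 2006 ± 39.8 CPM. Prox1 and Pou3f1, the DNA-binding members of single fields that were detected, lay below the median of this list.

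Each member with close relatives was then set against them per kilobase. Pou3f3 lay above Pou3f1, at −1.28 ± 0.02 (Pou3f1 over Pou3f3, log2; SD 0.13 in recovered reads), and reached 180 ± 8.57 CPM. Pou3f1 in turn lay above Pou3f2 by 0.65 ± 0.04 and above Pou3f4 by 0.85 ± 0.03, with SDs of 0.17 and 0.08 in recovered reads. The difference from Pou3f2 shrank to 0.11 without length scaling and to 0.10 with coding length, below its SD of 0.17. That from Pou3f4 was 1.24 and 0.93 in these settings. Thus the CA1 marker of this family was neither its highest nor its lowest gene. Prox1 lay above Prox2 by 2.78 ± 0.01, with an SD of 0.38 in recovered reads. Prox2 had only 16, 13 and 28 reads, so the size of this ratio depends on the added CPM. It was 3.20 with a pseudocount of 0.1 and 1.05 with a pseudocount of 5.

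For the calcium buffers, Calb2, which encodes calretinin, lay above Calb1 per kilobase of exon, at −0.66 ± 0.003 (Calb1 over Calb2; SD 0.03 in recovered reads). The direction turned to 0.81 without length scaling and to 0.87 with coding length. Man1a was the lowest of its enzyme family, at −3.21 ± 0.01 against Man1a2, −3.26 ± 0.02 against Man1b1 and −1.41 ± 0.02 against Man1c1. The SDs in recovered reads were 0.05, 0.07 and 0.14. Man1a2 and Man1b1 reached 111 ± 1.94 and 77.3 ± 3.52 CPM, and Man1c1 22.3 ± 1.85 CPM. Pcp4 lay below Pcp4l1 at −1.23 ± 0.004 (SD 0.16 in recovered reads), with 133, 140 and 136 reads for Pcp4l1. Amigo2 lay below Amigo1 at −2.45 ± 0.02 (SD 0.17 in recovered reads). By contrast, Amigo2 and Amigo3 differed by 0.10 ± 0.01, with 0.10 ± 0.15 in recovered reads and opposite signs among libraries.

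Lef1 was the lowest of the LEF and TCF factors. Tcf7l1 had 225, 199 and 239 reads (11.8 ± 1.02 CPM), Tcf7l2 105, 87 and 112 reads (5.39 ± 0.66 CPM) and Tcf7 22, 15 and 18 reads (0.98 ± 0.19 CPM). Each of the 3 had more reads than Lef1 in every library. Ratios to Lef1 are not given, since its 2 reads do not fix its level. Of 6 partner genes of this pathway 5 were detected, with a median of 103 CPM, led by Ctnnb1, which encodes beta-catenin, at 694 ± 7.93 CPM, while the ligand gene Wnt3a had no reads. Of the 14 comparisons with relatives, 13 had the same sign in 3 of 3 libraries in recovered reads. The exact sign-flip permutation test was run on the deposited values and gave p = 0.25 for each (adjusted 0.25). That includes Amigo2 over Amigo3, whose signs were mixed in recovered reads.

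Markers of the cells that the culture could hold were measured beside the field genes. All 6 neuronal markers were detected, with a summed level of 5074 to 5103 CPM over the libraries, from Mapt at 2032 ± 39.4 to Rbfox3 at 147 ± 7.22 CPM. Interneuron markers, 11 of 12 detected, summed to 1181 to 1215 CPM, from Gad1 at 340 ± 3.5 to Pvalb at 0.44 ± 0.13 CPM. The part of interneurons in the levels of Prox1 and Calb1 was not tested. Astrocyte markers, 7 of 7 detected, summed to 1671 to 1693 CPM, from Slc1a3 at 980 ± 9.44 to S100b at 2.55 ± 0.50 CPM, and their part in the level of Zbtb20 was not tested. Progenitor markers, 6 of 6 detected, summed to 1041 to 1082 CPM, from Fabp7 at 622 ± 22.9 to Hes5 at 3.74 ± 0.50 CPM. Oligodendrocyte precursor markers were detected for 5 of 5 genes (252 to 270 CPM summed, Olig1 highest, Sox10 lowest) and oligodendrocyte markers for 3 of 5 (34.5 to 36.8 CPM, Mbp highest, Mobp lowest). Microglial and endothelial markers were low, with 1 of 6 and 1 of 5 detected. C1qa at 1.79 ± 0.54 and Kdr at 4.03 ± 0.21 CPM were highest, with 6 reads in all for Tmem119 and none for Cldn5.

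Within the single group, the remaining question was whether any member differed between libraries given the same medium. A chi-square test set the recovered reads of 15131 genes against counting error and, in a second version, against the spread usual at a gene's level. Counting error was exceeded by 8.62% of the genes tested and the usual spread by 0.35% (Benjamini-Hochberg adjusted p under 0.05). Of the 9 members tested, 1 exceeded counting error, Pou3f1, and none exceeded the usual spread; at an unadjusted p under 0.05, 2 and 1 did, against 3125 and 951 of all 15131 genes. Lef1 had too few reads for the test.

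Pou3f1 was low in replicate 2, with 611 reads against 776 and 758 in replicates 1 and 3, a 1.25-fold range after scaling. The adjusted p was 0.000987 against counting error and 0.39 against the usual spread (chi-square on 2 degrees of freedom). In log2 units replicate 2 lay at −0.31 relative to the mean of the other libraries. The transcript of Pou3f1 has a GC content of 63.9%, higher than that of 99.3% of the genes tested. The 102 genes tested with a GC content at least as high had a median of −0.21 in replicate 2, against −0.01 over all genes tested. With size factors set within bins of GC content, the adjusted p of Pou3f1 against counting error was 0.157, and without replicate 2, the low library, it was 0.928. It was 0.00423 without replicate 1 and 0.00163 without replicate 3. The part of GC content in the low value of replicate 2 was not tested. CA1 members summed to 143, 131 and 141 CPM in replicates 1, 2 and 3 and the other CA1 genes to 532, 506 and 540 CPM.

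**Figure D5:**
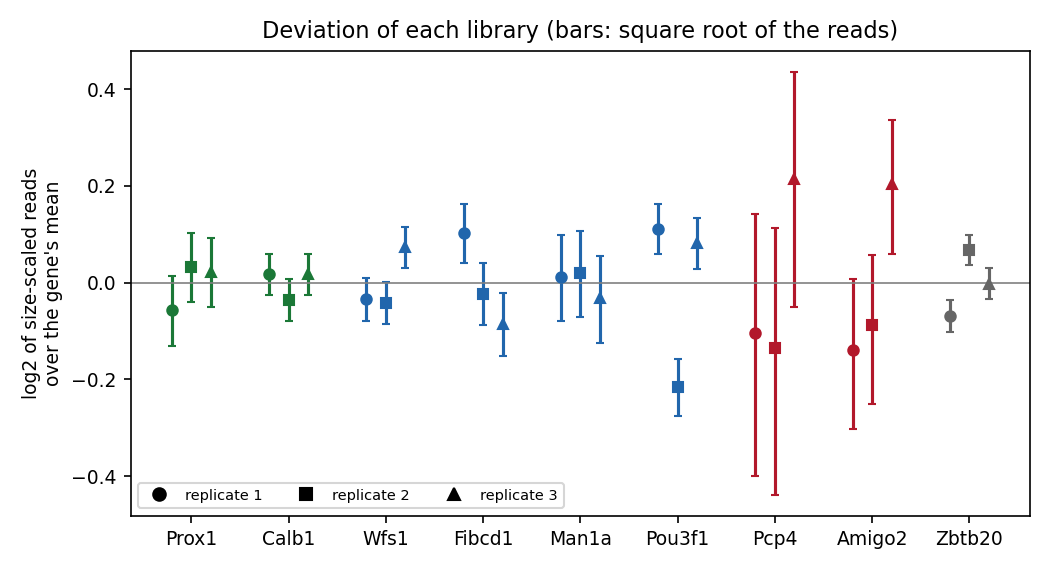
Deviation of each library from the gene's mean, in log2 units of size-scaled recovered reads, for the 9 members tested. Points are libraries and bars span plus and minus the square root of the reads; the point of Pou3f1 in replicate 2 lies at −0.22, while the wide bars of Pcp4 and Amigo2 reflect their few reads.

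For the other 8 members tested, no difference between libraries passed the test. Zbtb20, the next in order, ranged 1.10-fold (adjusted p = 0.0911 against counting error, chi-square), highest in replicate 2. Pcp4 and Amigo2 ranged 1.27-fold each and were highest in replicate 3, with adjusted p of 0.786 and 0.49 (chi-square), and their coefficients of variation in CPM were 13.5% and 12.9%. Calb1 and Man1a were the steadiest, at 2.36% and 2.22%. No library was at the same end for all: the lowest value fell in replicate 1 for 3 members, in replicate 2 for 4 and in replicate 3 for 2. Pcp4 and Amigo2 at these depths could hide a difference of the observed 1.27-fold size, so no difference was detectable for them rather than shown to be absent.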

How the data were processed

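For each library the authors deposited a headerless list of genes with log2 expression. The authors' tools, per the submitters' processing notes, were FastQC, HISAT2, featureCounts and DESeq2, with genome GRCm38; no version, setting or role is named. The log2 values have the form of a regularized log, which pulls the libraries of a gene with few reads together, so their SD understates the spread. Reads were therefore worked back from the deposited log2 values with a 6-parameter ridge-penalised negative binomial equation. Whole reads, to a tolerance of 0.1, resulted for 99.9% of the 67797 values checked (20% by chance). For the genes checked, the equation returned the deposited log2 to 0.001 or better. Both checks left out 3097 genes with 1 read in all, whose read was placed in the library with the highest value. Reads summed to 18780574, 18683964 and 18885652.

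The planned tests were kept: log2 differences per kilobase within a library (pseudocount 0.5 CPM) with exact sign-flip tests, and a chi-square test of variation where the mean was at least 10 reads, against counting error and against a dispersion trend fitted in 40 bins. Recovery of reads and the chi-square test were checked on simulated data, and the sign-flip tests were not. The simulated log2 values were made with the same equation that recovery inverts. That check therefore cannot show that the deposited values follow the equation. Detection meant 1 CPM in each library. Lengths came from GENCODE M21; 45224 rows matched by name, and 1 listed gene, Nectin3, by an older symbol. Alternatives covered length, pseudocount, threshold, filter, scaling and left-out libraries. Named genes were the 10 members, the highest and lowest gene of each other list, and the members' relatives; Tdo2, C1ql2 and Dsp are named in full because the count was small, as are a few overlapping genes. Members and lists (20 lists, 125 genes) were chosen with earlier results of these data known. Python 3.11.15, numpy 2.4.6, scipy 1.17.1 and matplotlib 3.10.9 were used.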

Additional observations from a re-analysis of the deposited data

How the results depend on the processing

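No paired analysis was possible because the 3 libraries form 1 group. Of 286 alternative values, 260 were classed as unchanged, 8 as moved and 18 as reversed. Unchanged did not mean of the same size. Dentate over CA1 was so classed at −0.08 without Lef1, against −2.27 in the main setting. CA1 over CA2 was so classed at 0.64 with a pseudocount of 5, against 1.67. Dentate over CA2 (−0.60) reversed to 1.38 without length scaling, 0.64 with coding length, 0.45 with medians, 2.0 with summed levels and 1.59 without Lef1, the last chosen after seeing the data. Without length scaling, Wfs1 over Calb1 was −0.057, Fibcd1 over Zbtb20 −1.95, Pcp4 over Amigo2 −1.37, Amigo2 over Man1a −1.38 and Calb1 over Calb2 0.81. With coding length, Wfs1 over Calb1 was −1.83, Fibcd1 over Zbtb20 −1.26, Amigo2 over Man1a −0.86 and Calb1 over Calb2 0.87; these follow from the lengths themselves. With the longest transcript, Prox1 over Pcp4 was −0.27 and Amigo2 over Man1a −0.60. With a pseudocount of 5, Prox1 over Pcp4 was −1.03 and Amigo2 over Amigo3 −0.10. Genes varying beyond counting error numbered 1304, 330 to 1106 without 1 replicate (330 without replicate 2, 755 without replicate 3) and 754 with GC bins, also chosen after seeing the data. Beyond the usual spread they numbered 53, and 10 to 30 without 1 replicate (10, 19 and 30 without replicates 1, 2 and 3), where fewer samples enter the test. Of the members, 9 were detected by the deposited values, 8 at 5 CPM and 10 with any read. Amigo2 is among those 8, but by recovered reads it had 4.63 and 4.76 CPM in replicates 1 and 2. Depth limits what can be said of Pcp4 and Lef1.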
